A study of Saccharomyces cerevisiae with 8 samples.

Results

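The genes described here are 30 protein-coding genes of Saccharomyces cerevisiae that take up sulfate, reduce it, build methionine, cysteine and S-adenosylmethionine from it, or regulate those steps. They were chosen by symbol from a list made for this purpose, and all 30 were found among the 6034 coding targets of each expression table. All 30 had enough reads to enter the tests, which covered 5734 genes. The study measured poly(A) RNA from W303a yeast, cultured in YPD (2% dextrose) at 30 °C until the OD600 lay between 0.2 and 0.4. There were 4 groups of 2 libraries each. The first group was held at 30 °C for 5 min, and the second was heat-shocked at 39 °C for 5 min. The other 2 groups had the same temperatures, with Ifh1 depleted by β-estradiol at 1 µM together with 5ph-IAA at 5 µM for 30 min.

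Ifh1 is a coactivator of the ribosomal protein genes, and 5ph-IAA is an auxin analogue used to degrade a protein that carries an auxin-dependent degron. The study's design text calls the depletion an anchor away, and whether the untreated groups received a vehicle or carried the same alleles is not given in the sources used here. The 5ph-IAA groups therefore differ from the untreated groups in β-estradiol, in 5ph-IAA and in Ifh1, and these cannot be told apart. The labels number 2 biological replicates per group without saying what separated them.

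In yeast, sulfate enters through the permeases Sul1 and Sul2, is activated by Met3 and Met14, and is reduced to sulfide by Met16 and the sulfite reductase of Met5 and Met10. Met17 joins sulfide to the carbon chain that Met2 prepares, giving homocysteine, which Met6 methylates to methionine. Sam1 and Sam2 turn methionine into S-adenosylmethionine, the methyl donor of the cell, and Sah1 clears the S-adenosylhomocysteine that methylation leaves behind. The transsulfuration enzymes exchange homocysteine and cysteine. The activator Met4 has no DNA-binding activity of its own and is brought to promoters by Cbf1 and by Met31 or Met32, with Met28 stabilizing the complex. Met30 is the F-box protein through which a ubiquitin ligase restrains Met4 when sulfur amino acids are plentiful.

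Each library held between 7717767 and 21025464 estimated counts, with the 39 °C libraries without 5ph-IAA the deepest. The a-cell genes STE2, STE6 and BAR1, which mark the labelled mating type, were read in all 8 libraries, from 73.6 to 495 TPM for STE2. The very short pheromone genes MFA1 and MFA2 were listed at 0, while the α-cell genes STE3 and MF(ALPHA)1 stayed at or below 4.06 and 2.55 TPM. The α-cell genes SAG1, at 12.6 to 24.7 TPM, and MF(ALPHA)2, at 10.6 to 25.6 TPM, were not low, and the a-cell genes STE6 and BAR1 read as little as 10.3 and 17.2 TPM at 39 °C. IFH1 mRNA was 24.1 and 22.6 TPM at 30 °C, and 10.1 and 9.06 after heat. With 5ph-IAA it was 26.6 and 24 TPM at 30 °C, and 13.7 and 14.3 after heat. The treatment acts on Ifh1 protein, so these mRNA values do not check the depletion. Ribosomal protein genes held 39.7% and 40.6% of all TPM at 30 °C, and 19.3% and 19.8% after heat. With 5ph-IAA their share was 17.1% and 17.3% at 30 °C, and 10.3% in both heated libraries. TPM, kallisto's length-scaled transcript abundances, are shares of a library, so a smaller share of this block leaves a larger share to the other genes together.

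The tests below used edgeR's quasi-likelihood test with TMM scaling, fitted on all 8 libraries and all genes, and a gene was called at a Benjamini-Hochberg adjusted p under 0.05. All adjusted p-values are from this test. Fold changes are log2 values, and their standard error (SE) was derived from the F statistic of the same test, so it restates that test. Changes in 5ph-IAA comparisons moved with the scaling. At 30 °C the median gene changed by -0.02 under TMM, by 0.38 when libraries were scaled by their totals alone, and by 0.61 on log2(TPM + 1). At 39 °C the corresponding values were 0.00, 0.14 and 0.28. A stricter count is therefore also given, of genes called in the same direction under all 5 scalings compared: TMM, library totals, TMM without ribosomal protein genes, DESeq2 and log2(TPM + 1). In bulk RNA, a change in every cell and a larger change in some cells cannot be told apart.

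Promoter sites are printed for the regulators MET28 and MET30 and for a selection of other members, since Cbf1, Met31 and Met32 are the factors that bring Met4 to DNA. The selection followed no fixed rule and holds several genes with large changes given below, such as MET28, SAM1, SAH1, MET13 and SUL2. Matches in CYS4, MET8, MET17, MUP1, MET1, MET3, MET10, MET12, MET22, CYS3 and MMP1 are not printed, and MET6 held none of these motifs. The 300 bases before each coding start were read from the R64 genome of the reference strain S288C, not from W303, and searched on both strands. The Cbf1 motif CACGTG was found in 11 of 30 windows (36.7%), against 3.57% of the windows of 5999 genes. The core of the Met31 and Met32 motif, CTGTGG, was found in 13 of 30 (43.3%), against 6.83% of all. Its longer form AAACTGTGG, whose matches overlap the core, was found in 7 of 30 (23.3%), against 0.52%. MET10, MET17, MET28 and MET30 held both CACGTG and CTGTGG, as did 0.35% of all windows. The sites below are written 5′ to 3′ on the strand of the gene, with the motif match in capitals.
MET28, Cbf1 motif, 213 bases before the coding start, chrIX:384321-384350, minus strand: gggtactgagtgCACGTGacttattttttt
MET28, Met31 and Met32 motif, 144 bases before the coding start, chrIX:384254-384283, minus strand: actttctaacaCCACAGTTTtgggcgggaa
MET30, Cbf1 motif, 171 bases before the coding start, chrIX:268462-268491, plus strand: atgaggttgtagCACGTGatcgggaagcca
MET30, Met31 and Met32 motif, 153 bases before the coding start, chrIX:268478-268507, plus strand: tgatcgggaagCCACAGTTTgcgcggagat
SAM1, Met31 and Met32 motif, 268 bases before the coding start, chrXII:514974-515003, plus strand: ttttcacaggaAAACTGTGGtggcgccctt
SAM2, Met31 and Met32 motif, 291 bases before the coding start, chrIV:1454735-1454764, minus strand: AAACTGTGGcgtttttccaccgatgggtcc
SAH1, Cbf1 motif, 235 bases before the coding start, chrV:237343-237372, minus strand: gatatttctgtgCACGTGatctcgttggct
MET16, Cbf1 motif, 172 bases before the coding start, chrXVI:877793-877822, minus strand: ttatcatcatttCACGTGgctagtaaaaga
MET14, Cbf1 motif, 222 bases before the coding start, chrXI:439596-439625, minus strand: tgccactaatttCACGTGatcaatatattt
MET13, Met31 and Met32 core, 109 bases before the coding start, chrVII:272393-272422, plus strand: gaaaagctaatgCCACAGcttgtgtttcgt
SUL2, Met31 and Met32 core, 281 bases before the coding start, chrXII:323245-323274, plus strand: agagaaattcggCCACAGttgtggtcctaa

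SAM1 and SAM2 encode paralogous synthetases and carry the same letters AAACTGTGG in the same orientation, at 268 and 291 bases. In MET28 and MET30, where CCACAGTTT is printed, the same motif lies on the opposite strand, as does the core in MET13 and SUL2. The motif TGACTC, bound by Gcn4, was found in 6 of 30 windows (20%), against 7.75% of all. The stress element AGGGG, bound by Msn2 and Msn4, was found in 6 of 30 (20%), against 22.2%, and the heat shock element unit GAANNTTC, bound by Hsf1, in 3 of 30 (10%), against 11.5%. TGACTC lay before MET16, MET5, MET22, MET13, MUP1 and MET28. AGGGG lay before MET13, STR3, SAM2, SAM3, MET28 and MET30, and GAANNTTC before SAM2, MET4 and MET32. SUL1, MET5, MET2, MET6, STR2, STR3, SAM3, MET4, MET31 and MET32 had neither CACGTG nor CTGTGG in this window. With heat without 5ph-IAA, 3 of these 10 were called higher and 4 lower. Of the 20 genes with either motif 7 were called higher and 10 lower, against 42.5% and 39.7% of all genes. A match describes letters in the reference sequence and was not tested as a binding site.

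**Figure D1:**
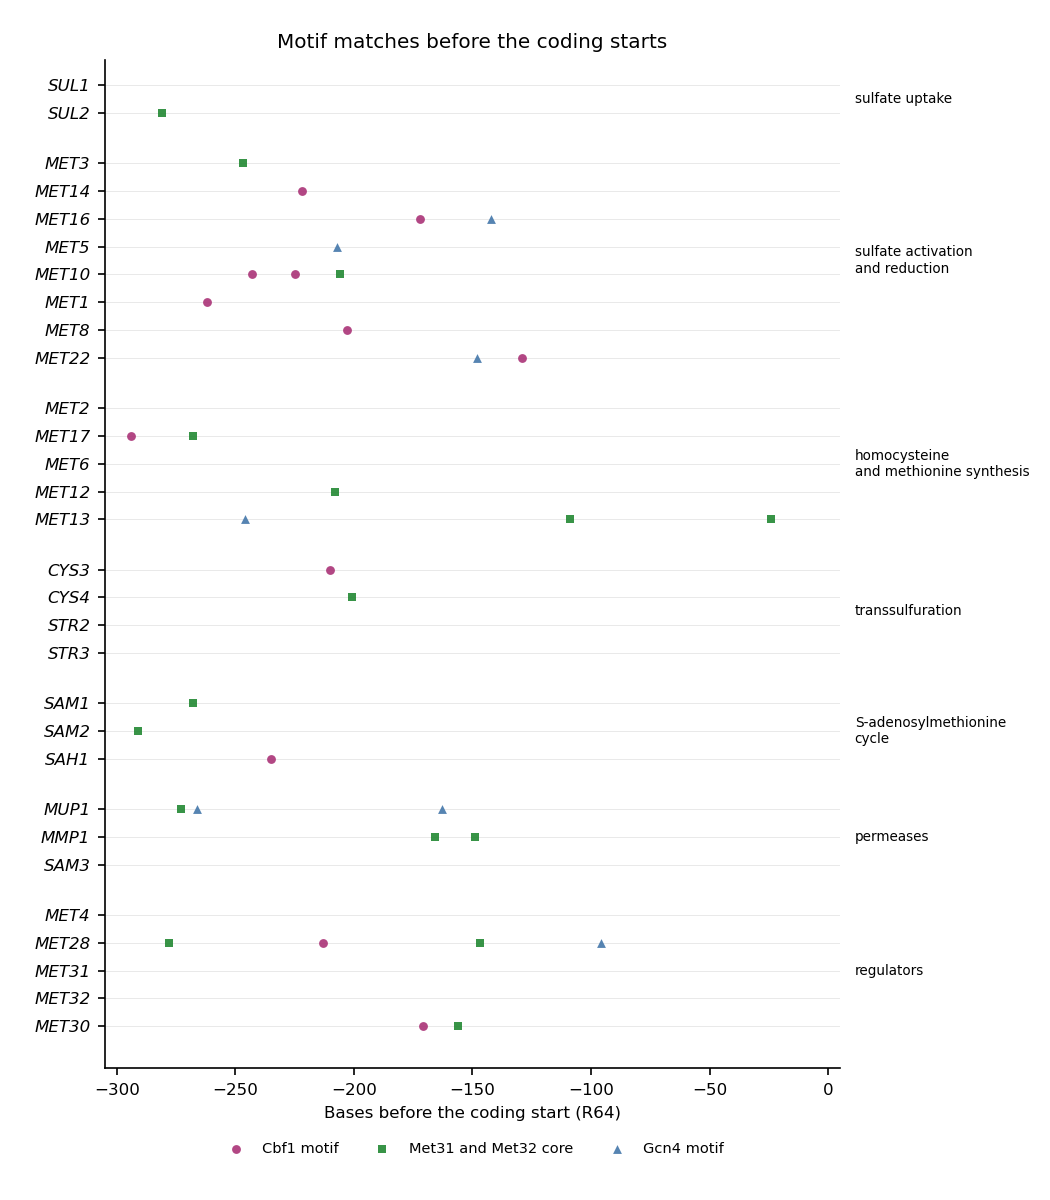
Positions of the Cbf1 motif (circles), the Met31 and Met32 core (squares) and the Gcn4 motif (triangles) in the 300 bases before the coding start of each of the 30 genes, with genes grouped by role and the horizontal axis in bases. MET10, MET17, MET28 and MET30 show both circles and squares, and 10 genes show neither.

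The 30 genes together held 0.378% and 0.374% of all TPM at 30 °C, and their levels spanned a wide range. SAH1 was the highest, with 789 and 768 TPM in the 2 libraries at 30 °C, followed by CYS3 (cystathionine γ-lyase) with 560.3 and 576 TPM. CYS4 (cystathionine β-synthase) with 524 and 505 TPM and SAM1 with 521 and 503 TPM came next and did not differ beyond their spread. MET17 with 299 and 301 TPM and SAM2 with 300.1 and 289 TPM overlapped as well. The lowest levels were those of MET28 at 5.16 and 4.22 TPM, STR3 (a cystathionine β-lyase) at 4.25 and 3.86 TPM and SUL2 at 3.99 and 4.08 TPM. STR3 overlapped with both of the others, while the MET28 values lay above those of SUL2. The abundant genes were thus those at the methionine, cysteine and S-adenosylmethionine end of the pathway, while most genes of sulfate uptake and reduction lay below 40 TPM apart from MET14 (91.9 and 103 TPM) and MET22 (105 and 108 TPM).

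**Figure D2:**
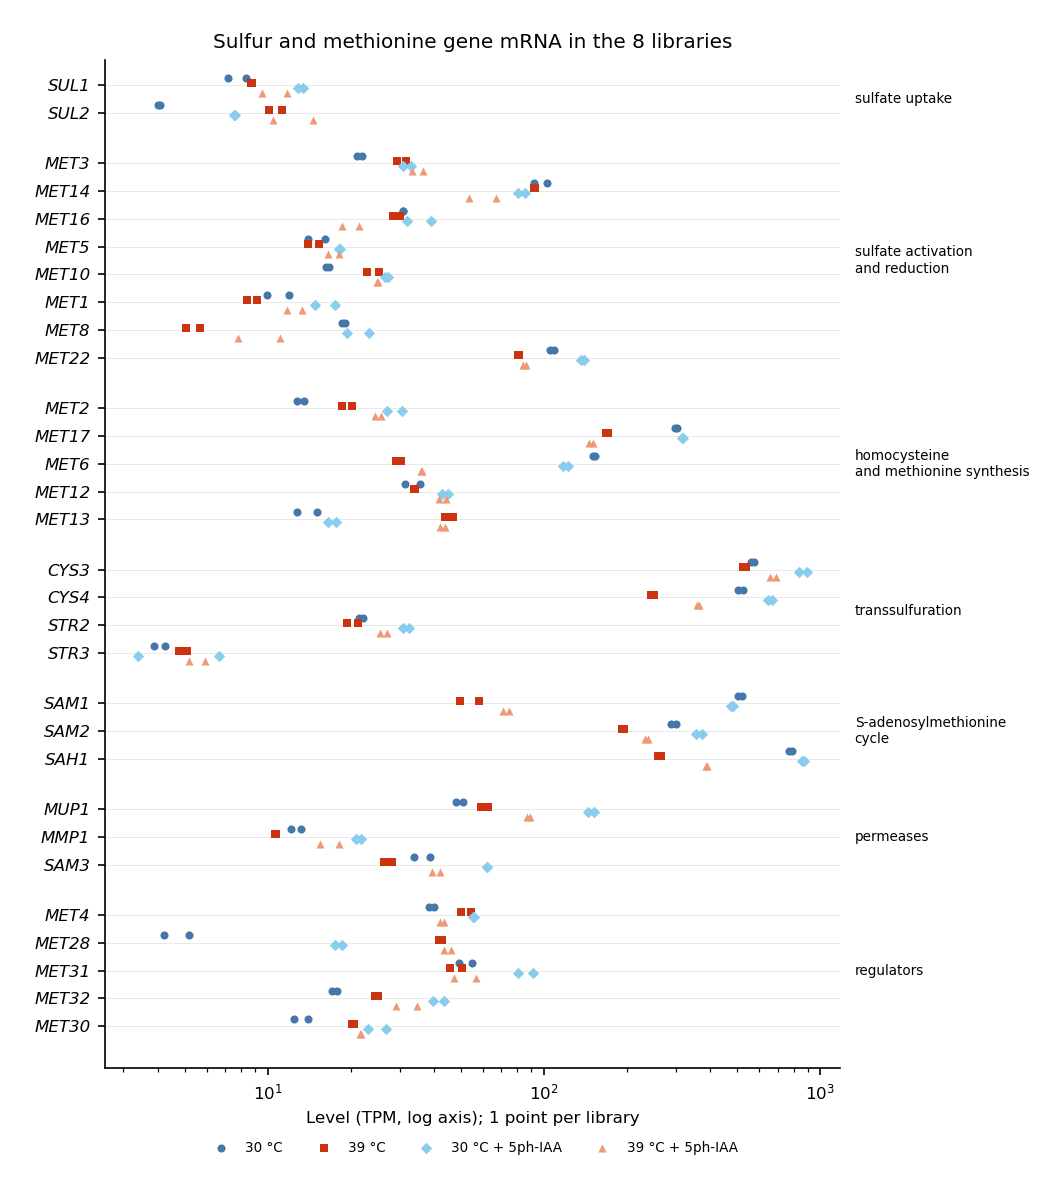
Level of each of the 30 genes in each of the 8 libraries, in TPM on a log axis, 1 point per library, with genes grouped by role and the 4 groups marked by colour and shape. SAM1 drops from above 470 TPM in the 30 °C libraries to below 75 TPM in the 39 °C libraries, and MET28 without 5ph-IAA rises from about 5 TPM at 30 °C to above 40 TPM at 39 °C.

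Heat shock without 5ph-IAA asks how 5 min at 39 °C changed the pathway in untreated cells. The abundant enzymes of methionine and S-adenosylmethionine synthesis were lower at 39 °C, while MET28, MET13 and SUL2, which had low levels at 30 °C, were higher. Of the 30 genes 10 were called higher and 14 lower, against 42.5% higher and 39.7% lower among all 5734 genes tested, and the median change was -0.21 for the 30 genes and 0.04 for all genes. The same call under all 5 scalings was made for 8 higher genes (38.2% of all genes) and 9 lower genes (34.0% of all genes). Both shares of the members, 26.7% and 30.0%, lay below those of all genes. Library totals alone gave 8 higher and 18 lower, TMM without ribosomal protein genes gave 9 and 17, and log2(TPM + 1) gave 10 and 9. The group's share of all TPM went from 0.378% and 0.374% at 30 °C to 0.220% in both libraries at 39 °C.

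In the S-adenosylmethionine cycle 3 of 3 genes fell, against 39.7% of all genes. SAM1 (chromosome XII, 515262 to 516410) read 521 and 503 TPM at 30 °C and 58.3 and 49.4 TPM at 39 °C. The groups were far apart, and SAM1 fell by 3.38 on the log2 scale (SE 0.060, adjusted p = 4e-15), which is 10.4-fold. Its paralog SAM2 read 300.1 and 289 TPM at 30 °C against 191 and 195 TPM at 39 °C and fell by 0.74 (SE 0.050, adjusted p = 7.87e-09). The 2 coding sequences are 83.2% identical in R64 and share 5.18% of their 31-base words, and SAM1 and SAM2 were the members whose estimated counts were not whole, in all 8 libraries, so some reads were divided between them. With their counts summed, the pair fell by 1.83 (adjusted p = 4.74e-14). SAH1, S-adenosylhomocysteine hydrolase, went from 789 and 768 TPM to 258 and 265 TPM and fell by 1.70 (SE 0.044, adjusted p = 1.92e-13).

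Among the genes of homocysteine and methionine synthesis, 2 of 5 rose and 2 fell, near the 42.5% and 39.7% of all genes. MET6, the cobalamin-independent methionine synthase, read 151 and 152 TPM at 30 °C and 30.2 and 29.0 TPM at 39 °C. It fell by 2.48 (SE 0.049, adjusted p = 1.13e-14), a 5.60-fold difference. MET17 went from 299 and 301 TPM to 167 and 169.6 TPM and fell by 0.96 (SE 0.050, adjusted p = 3.62e-10). The coding sequence of MET17 overlaps that of YLR302C, and the library kit does not mark strand, so reads from the overlap cannot be assigned by strand. MET13, a methylenetetrahydrofolate reductase that makes the methyl donor of Met6, went the other way, from 12.8 and 15.1 TPM to 46.8 and 43.6 TPM, a rise of 1.56 (SE 0.086, adjusted p = 7.32e-10). Its isozyme gene MET12 read 35.7 and 31.3 TPM against 33.9 and 34.1 TPM and was not called (-0.11, SE 0.058, adjusted p = 0.105). MET2, homoserine O-acetyltransferase, rose by 0.42 (SE 0.090, adjusted p = 0.000688), from 13.6 and 12.8 TPM to 20.2 and 18.5 TPM.

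Among the sulfate uptake genes SUL2 rose and SUL1 was not called. SUL2 went from 3.99 and 4.08 TPM to 10.1 and 11.2 TPM, a rise of 1.27 (SE 0.15, adjusted p = 2.31e-06), while SUL1 read 8.30 and 7.15 TPM against 8.77 and 8.68 TPM. Of the 8 genes of sulfate activation and reduction 2 rose and 4 fell, against 42.5% and 39.7% of all genes. MET8, which makes the siroheme cofactor of sulfite reductase, had the largest change, from 18.6 and 19.1 TPM to 5.05 and 5.68 TPM, and fell by 1.94 (SE 0.20, adjusted p = 7.59e-07). MET10, the α subunit gene of sulfite reductase, rose by 0.42 (SE 0.062, adjusted p = 2.62e-05), from 16.2 and 16.7 TPM to 25.2 and 22.9 TPM. MET5, the β subunit gene, read 16.1 and 14 TPM against 15.3 and 14 TPM and was called lower at -0.16 (adjusted p = 0.029), a call lost without the first 30 °C library (-0.10) and without the second 39 °C library (-0.12). MET3, ATP sulfurylase, rose by 0.38, whereas MET1, also of siroheme synthesis, fell by 0.44 and MET22, the bisphosphate nucleotidase, fell by 0.53. MET14 (adenylylsulfate kinase) at -0.21 and MET16 (PAPS reductase) at -0.21 were not called.

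Of the transsulfuration genes 3 of 4 fell, against 39.7% of all genes. CYS4 had the largest change, from 524 and 505 TPM to 244 and 249.7 TPM, and fell by 1.19 (SE 0.042, adjusted p = 5.06e-12). CYS3 fell by 0.22 (adjusted p = 0.00205) and stayed an abundant mRNA at 527 and 538 TPM. STR2, cystathionine γ-synthase, fell by 0.23, a call lost without the second 30 °C library (-0.17) or the second 39 °C library (-0.19). Of the permeases, the S-adenosylmethionine permease gene SAM3 fell by 0.54 (adjusted p = 1.94e-06), MMP1, the S-methylmethionine permease gene, fell by 0.37, and MUP1, the high-affinity methionine permease gene, was called higher at 0.17, a call that DESeq2 did not make (0.11, adjusted p = 0.138).

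Of the 5 regulators 4 were called higher, against 42.5% of all genes, and MET4, MET28 and MET30 were called under all 5 scalings. MET28 read 5.16 and 4.22 TPM at 30 °C and 41.7 and 42.8 TPM at 39 °C, a rise of 3.04 (SE 0.18, adjusted p = 1.7e-09) or 8.23-fold. Its lowest estimated count, 23, was in a 30 °C library, and its highest was 448. MET30 rose by 0.50 (SE 0.090, adjusted p = 0.000179), from 12.4 and 14 TPM to 20.5 and 20.2 TPM, and MET4 rose by 0.29 (SE 0.051, adjusted p = 0.000116), from 39.8 and 38.2 TPM to 54.5 and 50.1 TPM. MET32 was called higher at 0.37 (SE 0.16, adjusted p = 0.0412), from 17.0 and 17.8 TPM to 24.4 and 25.0 TPM, but DESeq2 gave 0.31 with an adjusted p of 0.152, and the call was also lost without any of the 4 libraries compared. MET31 read 49.2 and 55.0 TPM against 50.2 and 45.7 TPM and was not called (-0.25, SE 0.12, adjusted p = 0.0631). Of the 4 genes whose promoters hold both motifs, MET10, MET28 and MET30 rose and MET17 fell, against 42.5% higher and 39.7% lower among all genes. With heat and 5ph-IAA 1 of the 4 was called higher, 1 lower and 2 were not called, against 38.0% and 38.3% of all genes. A link between the motifs and the changes was not tested.

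**Figure D3:**
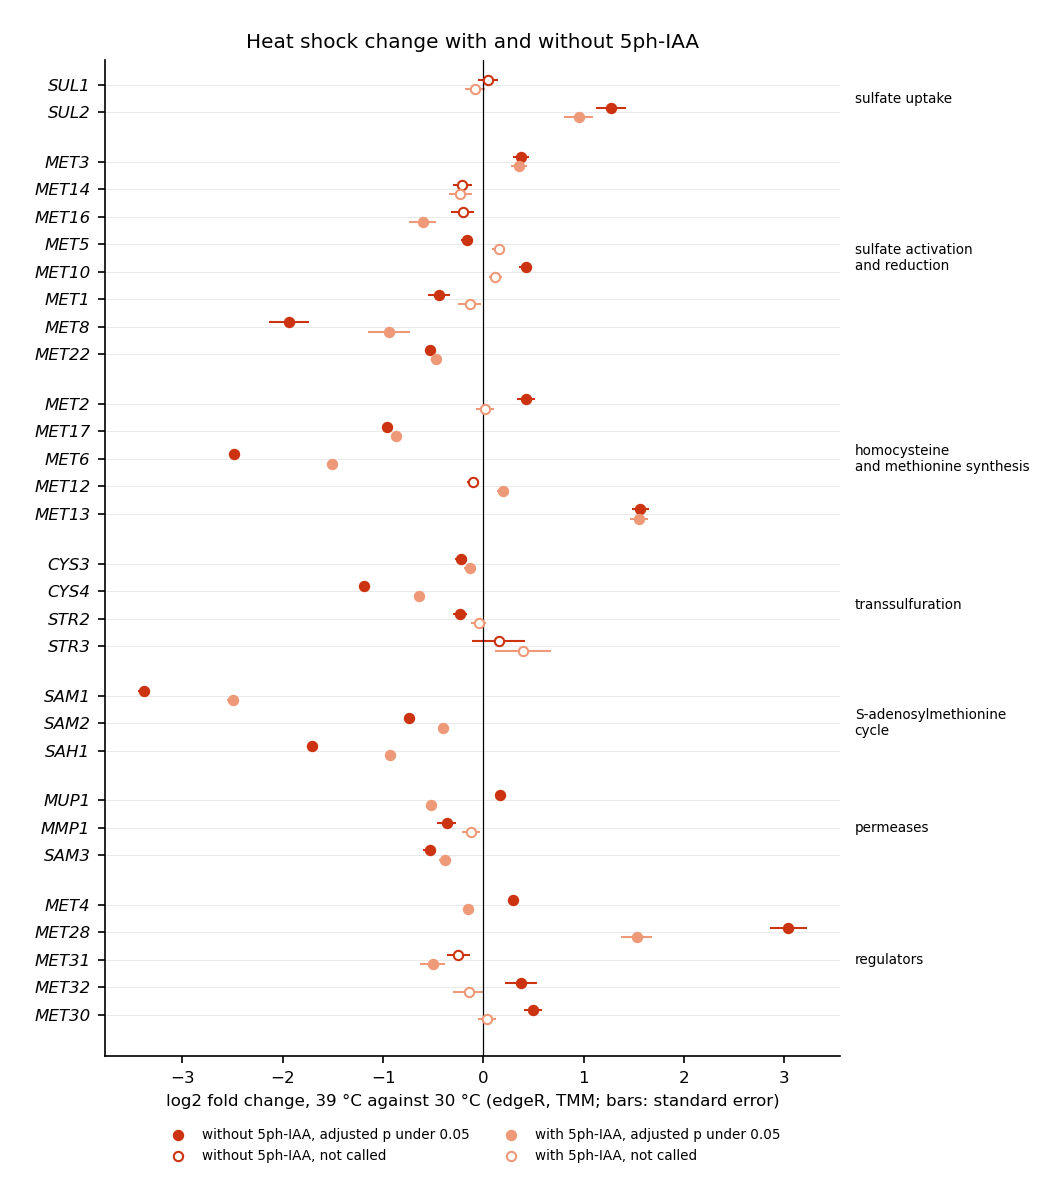
log2 fold change of each gene at 39 °C against 30 °C, without 5ph-IAA (dark) and with 5ph-IAA (light), with bars for the standard error, filled points for genes called at an adjusted p under 0.05 and open points for the others. SAM1, MET6 and MET8 lie far to the left and MET28, MET13 and SUL2 to the right in both, and for SAM1, MET6, SAH1, CYS4 and MET28 the light points lie nearer to 0.

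The comparison of 5ph-IAA with no treatment at 30 °C asks what the combined treatment changed without heat. MET28, MUP1, MET32 and MET2 were higher under every scaling compared, and MET6 was lower under every one. Under TMM 5 of the 30 genes were called higher and 13 lower, against 23.6% and 28.1% of all genes. Library totals alone turned this to 17 higher and 5 lower, and log2(TPM + 1) to 23 higher and 1 lower. The median of the 30 genes minus that of all genes was -0.11 under TMM, -0.11 with library totals and -0.10 on log2(TPM + 1), a difference that a change of scaling leaves nearly as it is by construction. Under all 5 scalings 4 genes were called higher (20.4% of all genes) and 1 lower (4.69% of all genes). The share of ribosomal protein genes fell together with this shift, and its part in the direction of single genes was not tested beyond the scalings given.

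MET28 rose from 5.16 and 4.22 TPM to 17.5 and 18.5 TPM with 5ph-IAA at 30 °C, a change of 1.30 (SE 0.21, adjusted p = 0.000156) that ranged up to 1.74 on log2(TPM + 1). MUP1 rose from 50.9 and 47.9 TPM to 151 and 144 TPM, with 0.93 under TMM (SE 0.049, adjusted p = 2.61e-09) and 1.56 on log2(TPM + 1). The groups were well separated in both genes. MET32 rose from 17.0 and 17.8 TPM to 43.2 and 39.7 TPM (0.60, SE 0.16, adjusted p = 0.00675). MET2 rose from 13.6 and 12.8 TPM to 27.0 and 30.6 TPM (0.49, SE 0.094, adjusted p = 0.000738). MET30 was called at 0.26 (SE 0.095, adjusted p = 0.0352), from 12.4 and 14 TPM to 26.8 and 23.0 TPM, but DESeq2 gave an adjusted p of 0.0685, and without the first 30 °C library the value was 0.14.

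MET6 read 151 and 152 TPM at 30 °C and 122 and 117 TPM with 5ph-IAA, so it fell even as a share of the library. The change was -0.99 under TMM (SE 0.047, adjusted p = 8.48e-10) and -0.34 on log2(TPM + 1). MET14 read 91.9 and 103 TPM against 85.1 and 80.7 TPM (-0.88, SE 0.10, adjusted p = 1.1e-05), with -0.23 on log2(TPM + 1), where it was not called. SAM1 read 521 and 503 TPM against 484 and 474 TPM (-0.74, SE 0.054, adjusted p = 8.74e-08), with -0.10 on log2(TPM + 1), and SAM1 and SAM2 summed gave -0.59 under TMM (adjusted p = 5.28e-08). For MET17 (-0.57, adjusted p = 5.77e-07) and SAH1 (-0.50, adjusted p = 5.19e-07) the direction flipped on log2(TPM + 1), to 0.08 and 0.15. MET17 read 299 and 301 TPM against 314 and 319 TPM, and SAH1 read 789 and 768 TPM against 856 and 871 TPM. MET16 was called at -0.44 (adjusted p = 0.00917) and flipped to 0.18 on log2(TPM + 1), and without the first 5ph-IAA library at 30 °C it was -0.29 and not called.

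The remaining lower calls under TMM were MET5 (-0.37), MET13 (-0.35), SAM2 (-0.35), CYS4 (-0.30), MET22 (-0.28), MET12 (-0.26) and MET4 (-0.14, SE 0.053, adjusted p = 0.037), and all 7 were above 0 on log2(TPM + 1). MET4 was called lower under 1 of the 5 scalings, and DESeq2 gave -0.13 with an adjusted p of 0.179. MET13 was -0.19 and not called without the second 30 °C library. MET31 read 49.2 and 55.0 TPM against 80.5 and 91.2 TPM and was not called under TMM (0.08, SE 0.12, adjusted p = 0.625). STR3 had 6.68 and 3.40 TPM with 5ph-IAA, the widest relative spread between libraries of a group among the members, and its change of -0.36 became -0.87 and was called (adjusted p = 0.0234) without the first of these libraries. CYS3, STR2, MET3, MET1, MET8, MET10, SUL1, SUL2, SAM3 and MMP1 were not called under TMM, with changes between -0.48 for MET8 and 0.26 for SUL2. The permeases SAM3 and MMP1 went from 38.5 and 33.8 TPM to 62.1 and 61.9 TPM and from 13.1 and 12.1 TPM to 20.9 and 21.7 TPM, and were near 0 under TMM, at 0.13 and 0.11.

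**Figure D4:**
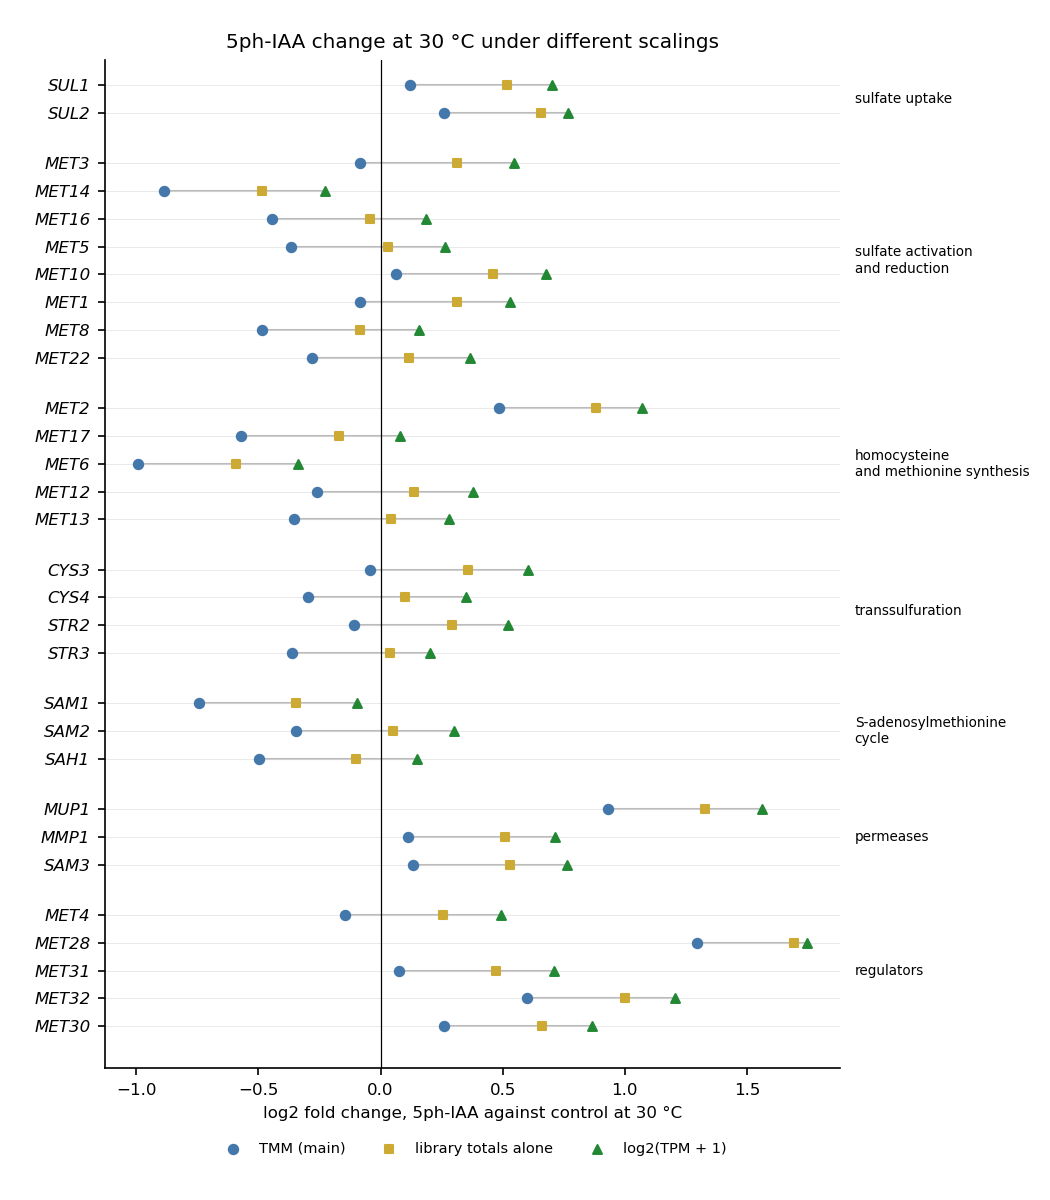
log2 fold change of each gene with 5ph-IAA against no treatment at 30 °C under TMM (circles), library totals alone (squares) and log2(TPM + 1) (triangles), joined by a line for each gene. The points of every gene shift to the right by a similar distance, so that MET6 stays left of 0, MET28, MUP1, MET32 and MET2 stay right of it, and genes such as MET17, SAH1 and MET22 cross it.

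Heat shock with 5ph-IAA asks whether the response to 39 °C was the same after the combined treatment. SAM1, MET6, MET8, SAH1, MET17 and CYS4 were again lower at 39 °C, and MET13, MET28 and SUL2 were higher. Of the 30 genes 5 were called higher and 14 lower, against 38.0% and 38.3% of all genes, with a median of -0.14 and of 0.01 for all genes. Under all 5 scalings 3 were higher (24.4% of all genes) and 14 lower (37.0% of all genes). The split was 3 and 24 with library totals alone and 3 and 19 on log2(TPM + 1), where the median gene changed by -0.32 and -0.21.

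With 5ph-IAA, SAM1 read 484 and 474 TPM at 30 °C and 70.7 and 74.8 TPM at 39 °C, and fell by 2.49 (SE 0.062, adjusted p = 2.72e-13) or 5.63-fold. MET6 went from 122 and 117 TPM to 35.8 and 36.1 TPM and fell by 1.51 (SE 0.052, adjusted p = 7.28e-12). SAH1 went from 856 and 871 TPM to 386 and 389 TPM and fell by 0.93 (SE 0.044, adjusted p = 2.41e-10). MET8 went from 23.1 and 19.3 TPM to 7.80 and 11.1 TPM and fell by 0.94 (SE 0.21, adjusted p = 0.00101). MET17 fell by 0.87 (SE 0.052, adjusted p = 2.79e-09), from 314 and 319 TPM to 151 and 145 TPM, and CYS4 by 0.64 (SE 0.042, adjusted p = 7.47e-09), from 667 and 646 TPM to 357 and 362 TPM. In each of these genes the 30 °C and 39 °C libraries did not overlap, which says little with 2 libraries a group. Without 5ph-IAA, SUL1, STR3 and MET16 did not overlap either and were not called. The share of all genes without overlap was not computed.

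On the other side, MET13 rose by 1.55 (SE 0.090, adjusted p = 2.26e-09), from 16.5 and 17.6 TPM to 41.9 and 43.8 TPM. MET28 rose by 1.53 (SE 0.16, adjusted p = 8.49e-07), from 17.5 and 18.5 TPM to 43.3 and 45.9 TPM. SUL2 rose by 0.95 (SE 0.14, adjusted p = 4.21e-05), from 7.56 and 7.59 TPM to 14.5 and 10.4 TPM, with its heated libraries far apart. MET3 (0.36, adjusted p = 0.00109) and MET12 (0.19, adjusted p = 0.0109) were called higher under TMM. MET3 was 0.03 with library totals and 0.12 on log2(TPM + 1) and was called under 3 of the 5 scalings, and MET12 was called by neither DESeq2 (0.17, adjusted p = 0.0815) nor log2(TPM + 1), where it was -0.03. MUP1 fell by 0.52 (SE 0.047, adjusted p = 2.18e-07), from 151 and 144 TPM to 86.5 and 89.0 TPM.

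Of the other regulators, MET31 fell by 0.51 (SE 0.12, adjusted p = 0.00202), from 80.5 and 91.2 TPM to 47.2 and 56.8 TPM. MET4 was called at -0.15 (SE 0.054, adjusted p = 0.0214), from 55.6 and 55.1 TPM to 41.9 and 43.5 TPM, and this call was lost without the second 5ph-IAA library at 30 °C (-0.14) and without the first at 39 °C (-0.14). MET32 (-0.15, SE 0.15, adjusted p = 0.39) and MET30 (0.03, SE 0.091, adjusted p = 0.75) were not called. The further lower calls were MET16 (-0.60), MET22 (-0.47), SAM2 (-0.40), SAM3 (-0.39) and CYS3 (-0.14), and CYS3 was not called without the second library of either 5ph-IAA group (-0.07 and -0.09).

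The comparison of 5ph-IAA with no treatment at 39 °C asks what the combined treatment changed in heated cells. The genes of the 3 permeases were higher and MET14, MET16, MET4 and MET17 were lower under all 5 scalings. Under TMM 5 genes were called higher and 7 lower, against 22.5% and 22.0% of all genes, and the median was -0.01. Under all 5 scalings 5 were called higher (21.6% of all genes) and 4 lower (6.37% of all genes). The split was 6 and 5 with DESeq2, 14 and 5 with library totals and 15 and 4 on log2(TPM + 1).

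MET14 read 92.7 and 91.8 TPM at 39 °C and 66.7 and 53.7 TPM with 5ph-IAA, and fell by 0.90 (SE 0.10, adjusted p = 9.8e-06). MET16, the next enzyme in sulfate reduction, went from 30.1 and 28.4 TPM to 21.4 and 18.6 TPM and fell by 0.84 (SE 0.13, adjusted p = 0.00012). MET4 went from 54.5 and 50.1 TPM to 41.9 and 43.5 TPM and fell by 0.59 (SE 0.051, adjusted p = 6.61e-07). MET17 went from 167 and 169.6 TPM to 151 and 145 TPM and fell by 0.48 (SE 0.051, adjusted p = 4.99e-06). These 4 genes were lower as shares of the library too. MET13 was called at -0.37 (SE 0.077, adjusted p = 0.00139), from 46.8 and 43.6 TPM to 41.9 and 43.8 TPM, where the groups overlapped. MET10 (-0.24, adjusted p = 0.0056) was not called by DESeq2 (-0.19, adjusted p = 0.0709) and was 0.05 on log2(TPM + 1), and MET22 (-0.22, adjusted p = 0.00486) was likewise not called by DESeq2.

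MMP1 rose from 10.7 and 10.6 TPM to 15.4 and 18.1 TPM with 5ph-IAA at 39 °C (0.35, SE 0.091, adjusted p = 0.00621), though without the second of the 5ph-IAA libraries the value was 0.25 and not called. SAM3 rose from 28.2 and 26.2 TPM to 39.4 and 41.9 TPM (0.28, SE 0.061, adjusted p = 0.00205). The coding sequences of SAM3 and MMP1 are 70.4% identical and share none of their 31-base words. MUP1 rose from 62.5 and 58.9 TPM to 86.5 and 89.0 TPM (0.24, SE 0.047, adjusted p = 0.000982). SAH1 (0.27, SE 0.044, adjusted p = 0.000195) and CYS4 (0.25, SE 0.042, adjusted p = 0.000273) were also higher, with SAH1 at 386 and 389 TPM against 258 and 265 TPM. MET28 (-0.22, SE 0.14, adjusted p = 0.22), MET31 (-0.18, SE 0.12, adjusted p = 0.249), MET30 (-0.20, SE 0.086, adjusted p = 0.0753) and MET32 (0.08, SE 0.15, adjusted p = 0.706) were not called.

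The difference between both heat shock changes was tested as an interaction, in which the untreated change is subtracted from that with 5ph-IAA. SAM1, MET6, SAH1 and CYS4 fell less with 5ph-IAA, and MET28 rose less, under every scaling compared. Under TMM 8 genes had a higher and 6 a lower change with 5ph-IAA, against 26.0% and 22.9% of all genes, with a median of 0.07. Under all 5 scalings 4 were higher (11.8% of all genes) and 4 lower (16.2% of all genes). The split was 5 and 14 with library totals and 4 and 16 on log2(TPM + 1), where the median gene moved by -0.26 and -0.35.

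MET6 had an interaction of 0.98 (SE 0.070, adjusted p = 1.1e-07), since it fell by 2.48 without and by 1.51 with 5ph-IAA. SAM1 had 0.88 (SE 0.084, adjusted p = 1.55e-06), SAH1 0.77 (SE 0.062, adjusted p = 2.75e-07) and CYS4 0.55 (SE 0.059, adjusted p = 4.71e-06). SAM1 and SAM2 summed gave 0.61 (adjusted p = 1.56e-06). SAM2 alone had 0.34 (SE 0.072, adjusted p = 0.00165), which flipped to -0.02 on log2(TPM + 1). MET8 had 1.00 (SE 0.29, adjusted p = 0.0116), and this call was lost without the first 39 °C library (0.89) and without the second 5ph-IAA library at 39 °C (0.74). MET12 (0.30) and MET5 (0.32) were called under TMM and flipped to -0.06 and -0.04 on log2(TPM + 1).

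MET28 had an interaction of -1.51 (SE 0.25, adjusted p = 0.00021). Its 39 °C levels were 41.7 and 42.8 TPM without and 43.3 and 45.9 TPM with 5ph-IAA, so in TPM the groups differed mainly in the 30 °C libraries, at 5.16 and 4.22 TPM without and 17.5 and 18.5 TPM with 5ph-IAA. MUP1 had -0.69 (SE 0.067, adjusted p = 1.93e-06), MET30 -0.46 (SE 0.13, adjusted p = 0.00913) and MET4 -0.44 (SE 0.074, adjusted p = 0.000244). MET2 (-0.41, adjusted p = 0.0172) and MET10 (-0.30, adjusted p = 0.0131) were not called by DESeq2, at adjusted p of 0.107 and 0.0838. MET32 (-0.52, SE 0.22, adjusted p = 0.065) and MET31 (-0.26, SE 0.17, adjusted p = 0.235) were not called. For MET13 the interaction was -0.02 (SE 0.13, adjusted p = 0.922) and was not called. For SUL2 the interaction was -0.32 (SE 0.21, adjusted p = 0.225), and it was -0.60 and called (adjusted p = 0.0119) without the first 5ph-IAA library at 39 °C.

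Ratios of 2 genes in the same library do not depend on the scaling, and they separate the members of isozyme and paralog pairs. SAM1 to SAM2 was 1.74 in both libraries at 30 °C and 0.305 and 0.253 at 39 °C. With 5ph-IAA it was 1.37 and 1.27 at 30 °C and 0.297 and 0.323 at 39 °C. SAM1 was therefore the higher gene of the pair in the 30 °C libraries and the lower one in the 39 °C libraries of both treatments. MET13 to MET12 went from 0.359 and 0.482 to 1.38 and 1.28 with heat, and from 0.369 and 0.413 to 1.009 and 0.996 with heat and 5ph-IAA. Without 5ph-IAA, heat thus turned MET13 from the lower to the higher reductase mRNA.

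SUL2 to SUL1 was 0.481 and 0.570 at 30 °C and 1.15 and 1.29 at 39 °C. With 5ph-IAA it was 0.562 and 0.589 at 30 °C, and at 39 °C it was 1.53 in one library and 0.889 in the other. MET32 to MET31 was lowest at 30 °C without treatment, at 0.346 and 0.323, and lay between 0.436 and 0.619 in the 6 other libraries. MET28 to MET4 rose from 0.130 and 0.111 at 30 °C to 0.315 and 0.337 with 5ph-IAA, to 0.766 and 0.856 at 39 °C, and to 1.03 and 1.06 with both, so the 4 groups did not overlap in this ratio. MET30 to MET4 ran from 0.311 and 0.365 at 30 °C to 0.521 and 0.496 with both heat and 5ph-IAA. Levels per length are compared here, and nothing is said of the proteins. The pairs were chosen by hand, and how often ratios of other genes keep the 4 groups apart was not computed.

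**Figure D5:**
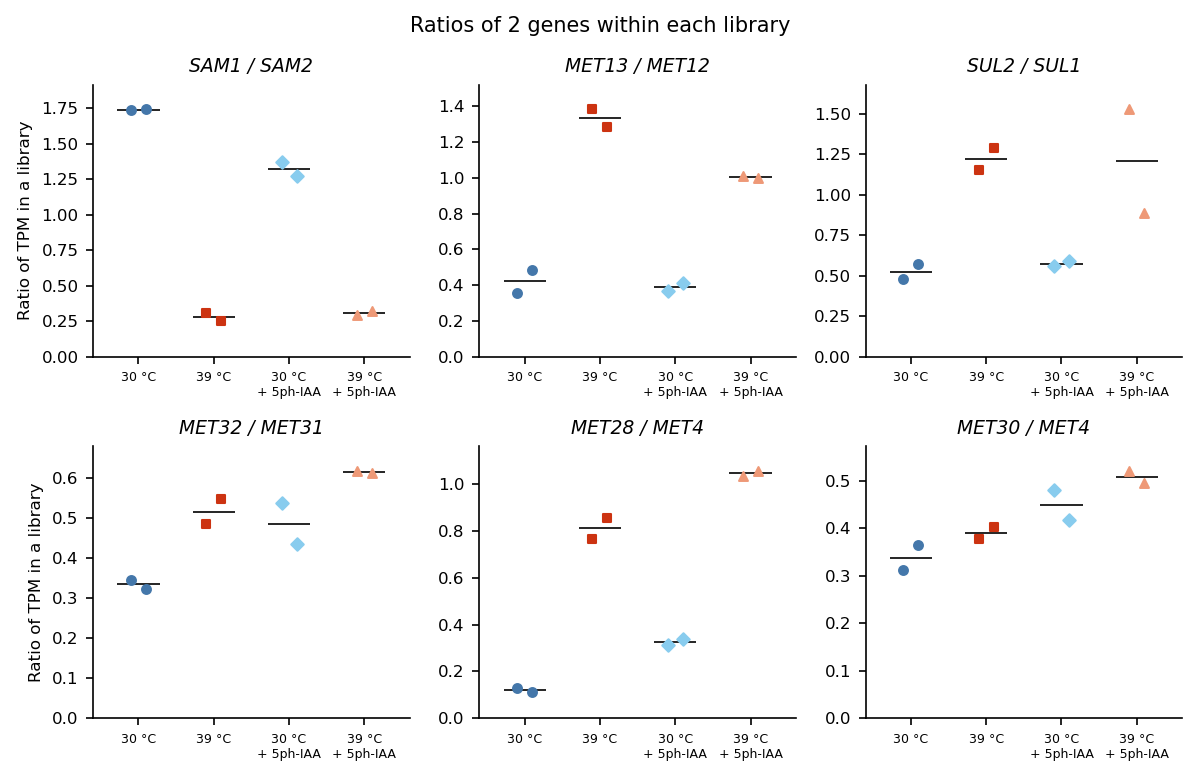
Ratio of the TPM of 2 genes within each library for 6 pairs, 1 point per library and a line at the mean of each group of 2. SAM1 / SAM2 lies above 1.2 in all 30 °C libraries and below 0.4 in all 39 °C libraries, and MET28 / MET4 separates all 4 groups.

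TPM were also summed by role. These sums are shares of a library, so they also move with the share of ribosomal protein genes, which was largest at 30 °C without 5ph-IAA. The S-adenosylmethionine cycle held 1609 and 1559.6 TPM at 30 °C, and 507 and 509 TPM after heat. With 5ph-IAA it held 1693 and 1716 TPM at 30 °C, and 694 and 695 TPM after heat. Transsulfuration held 1109.8 and 1107 TPM, 797 and 812 TPM, 1544 and 1572 TPM, and 1077 and 1052 TPM in the same order. The permeases held 102 and 93.8 TPM at 30 °C, and 102 and 95.7 TPM after heat. With 5ph-IAA they held 234 and 228 TPM, and 141 and 149 TPM after heat. The 5 regulators together held 124 and 129 TPM at 30 °C and between 183 and 228 TPM in every other library. Under TMM not all single genes followed these sums with 5ph-IAA at 30 °C. MET28, MET32 and MET30 were called higher, MET31 (0.08) was not called and MET4 (-0.14) was called lower. Of the permeases MUP1 was called higher, while SAM3 (0.13) and MMP1 (0.11) were not called. Without SAM1, SAM2, SAH1, CYS3, CYS4, MET6 and MET17, 23 genes were left. These held 638 and 643 TPM at 30 °C and 729 and 701 TPM at 39 °C. The genes left out were all called lower with heat without 5ph-IAA in these same data. That the rest did not fall with them was thus partly set by the choice, and no conclusion is drawn from it. With 5ph-IAA the same 23 genes held 981 and 967 TPM at 30 °C and 755 and 780.3 TPM at 39 °C, and were lower after heat.

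A further 33 genes of sulfur metabolism were measured. They make homoserine, salvage methionine, use S-adenosylmethionine or S-methylmethionine, handle glutathione, bring in other sulfur sources, form the thioredoxin system, repair methionine sulfoxide or assist Met4 and Met30. With heat without 5ph-IAA 10 of the 33 rose and 17 fell, against 42.5% and 39.7% of all genes. Under all 5 scalings 10 and 13 were called, against 38.2% and 34.0% of all genes. IRC7, a cysteine desulfhydrase gene, fell by 2.47 (SE 0.080), the methionine salvage gene MEU1 by 1.53 (SE 0.064) and the homocysteine methyltransferase gene SAM4 by 1.35 (SE 0.046). The methionine permease gene MUP3 rose by 1.47 (SE 0.17), the cysteine transporter gene YCT1 by 1.39 (SE 0.10) and the γ-glutamyltransferase gene ECM38 by 1.28 (SE 0.065). CBF1, SKP1, CDC53 and CDC34, which encode partners of Met4 and Met30, all rose, by 0.31 to 0.90. With heat and 5ph-IAA they were called higher under TMM, by 0.16 to 0.57, but under all 5 scalings only CDC53 of these 4 was, and with library totals CBF1 (-0.17), SKP1 (-0.12) and CDC34 (-0.03) lay below 0. With 5ph-IAA 13 of the 33 were called higher and 12 lower at 39 °C against 30 °C, against 38.0% and 38.3% of all genes. Under all 5 scalings 5 and 12 were called, against 24.4% and 37.0% of all genes. The calls were led by YCT1 (1.65), MUP3 (1.38) and ECM38 (0.80) and by IRC7 (-1.82), OPT1 (-0.80), a glutathione transporter gene, and SAM4 (-0.71).

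With 5ph-IAA at 30 °C 6 of the 33 genes were called higher and 10 lower under TMM, against 23.6% and 28.1% of all genes. Under all 5 scalings 5 and 4 were called, against 20.4% and 4.69% of all genes. MEU1, MRI1, SPE2, SAM4 and GSH1 were called lower under TMM and lay above 0 on log2(TPM + 1). The methionine salvage gene ADI1 (-1.15, SE 0.082), IRC7 (-1.13, SE 0.076) and HOM3 (-1.0, SE 0.057), the aspartate kinase gene that opens the route to homoserine, had the largest lower values. The methionine sulfoxide reductase gene MXR2 (0.48), CBF1 (0.47) and ECM38 (0.36) had the largest higher values. At 39 °C 9 were called higher, led by MEU1 (0.56), DUG2 (0.44) and SAM4 (0.30), and 6 lower, led by HOM3 (-0.60), HOM2 (-0.53) and IRC7 (-0.47), against 22.5% and 22.0% of all genes. Under all 5 scalings 8 were higher (21.6% of all genes), and HOM3 and HOM2 were the 2 lower genes (6.37% of all genes). In the interaction 12 were higher, led by MEU1 (0.91), ADI1 (0.72) and IRC7 (0.66), and 6 lower, led by JLP1 (-0.73), ECM38 (-0.48) and MXR2 (-0.44), against 26.0% and 22.9% of all genes. Under all 5 scalings 4 were higher (11.8% of all genes) and 4 lower (16.2% of all genes), without IRC7 and JLP1. The comparisons share libraries, so their values stand side by side and are not independent of each other.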

How the data were processed

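Poly(A) RNA of 8 W303a libraries, 2 in each of 4 groups, was sequenced after TruSeq v2 preparation, per the labels' protocols. The authors deposited estimated counts and TPM for 6034 coding targets from kallisto, per the submitters' processing notes. For kallisto's version and the build, not given in the sources used here, nothing was assumed. Estimated counts were rounded and fitted with edgeR 4.0.16 in R 4.3.3 (TMM, filterByExpr, quasi-likelihood with 1 term per group, 4 residual degrees of freedom). Fits were tested on simulated data. Alternatives used DESeq2 1.42.0, limma 3.58.1 on log2(TPM + 1) and log2(TPM + 0.1), other scalings, no filter and each library left out. A gene was called at an adjusted p under 0.05 over 5734 genes.

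The members and lists were chosen with earlier results of these data known, and the rule of 5 scalings was set after values were seen. In each comparison, values are given for up to 6 called members in each direction and the 5 regulators, and for up to 3 called genes in each direction of the other list. A further listed symbol was not matched. P-values measure the spread between 2 libraries a group, which differed by more than sampling noise (chi-square per degree of freedom 3.41 to 4.53). Counting intervals are not given, since values come from estimated counts. Between 6.55% and 7.29% of targets had counts more than 0.01 from a whole number. Coding lengths of all 30 members equalled those of R64, and sequences were read from that RefSeq genome with Biopython.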

Additional observations from a re-analysis of the deposited data

Results flagged for a closer look

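The change with heat differed between cells with and without 5ph-IAA for 14 of the 30 genes by the interaction test of edgeR (quasi-likelihood, adjusted p under 0.05), which is why these values are listed. Of the 30 genes 8 were higher and 6 lower, against 26.0% and 22.9% of all genes, so the share of the members was near that of all genes. The change with 5ph-IAA was higher for MET8 (1.00), MET6 (0.98), SAM1 (0.88), SAH1 (0.77), CYS4 (0.55), SAM2 (0.34), MET5 (0.32) and MET12 (0.30). It was lower for MET28 (-1.51), MUP1 (-0.69), MET30 (-0.46), MET4 (-0.44), MET2 (-0.41) and MET10 (-0.30). Of these, MET6, SAM1, SAH1, CYS4, MET28, MUP1, MET30 and MET4 were called in the same direction under all 5 scalings. The direction of SAM2, MET5 and MET12 flipped on log2(TPM + 1), to -0.02, -0.04 and -0.06.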

How the results depend on the processing

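In heat shock without 5ph-IAA, no gene called under TMM changed sign under the alternatives run. Over all settings and comparisons 2125 gene values kept direction and call, 71 changed sign with a call under at least 1 of both settings, 79 kept their sign but were no longer called and 115 became called. The 71 changes of sign came from library totals alone and from both TPM scales, and the cause was not tested. With library totals alone the values at 30 °C with 5ph-IAA became MET3 0.31, MET5 0.03, MET1 0.31, MET22 0.12, MET12 0.14, MET13 0.04, CYS3 0.36, CYS4 0.10, STR2 0.29, SAM2 0.05 and MET4 0.25. In heat shock with 5ph-IAA they became MET5 -0.18, MET10 -0.21, MET2 -0.31, MET12 -0.14 and MET30 -0.30. With 5ph-IAA at 39 °C MET6 and SAM2 became 0.13, and in the interaction MET22 became -0.19, MET17 -0.16 and CYS3 -0.17. On log2(TPM + 1), and on log2(TPM + 0.1) where a further value is given, 5ph-IAA at 30 °C gave MET3 0.54 and 0.56, MET16 0.18 and 0.19, MET5 0.27 and 0.28, MET1 0.53 and 0.57, MET22 0.37, MET17 0.08, MET12 0.38 and 0.39, MET13 0.28 and 0.30, CYS3 0.60 and 0.61, CYS4 0.35, STR2 0.52 and 0.54, SAM2 0.30, SAH1 0.15 and MET4 0.49 and 0.50. On these scales MET12 was -0.03 in heat shock with 5ph-IAA, and at 39 °C with 5ph-IAA MET10 was 0.05 and 0.06, MET22 0.07, MET6 0.27 and 0.28 and SAM2 0.28. The interaction became MET5 -0.04, MET22 -0.30, MET17 -0.27, MET12 -0.06, CYS3 -0.27 and SAM2 -0.02. Counts of called members moved with library totals alone to 17 higher and 5 lower with 5ph-IAA at 30 °C, to 14 higher at 39 °C, to 3 higher and 24 lower in heat shock with 5ph-IAA, and to 5 higher and 14 lower in the interaction. On both TPM scales they moved to 23 higher and 1 lower, to 15 higher and 4 lower, to 3 higher, to 4 higher and 16 lower in the same order, and to 9 lower in heat shock without 5ph-IAA. TMM without ribosomal protein genes, leaving out the filter, using the 4 libraries compared alone, DESeq2 or leaving out each library kept every count of called members within 1.5 times.

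With a replicate block the counts were 10 higher and 14 lower, 5 and 13, 5 and 14, 5 and 7, and 8 and 6 for heat in untreated cells, treatment at 30 °C, heat in treated cells, treatment at 39 °C and the interaction, the same as without it. Correlations between the deviations of same-numbered libraries ran from -0.11 to 0.30 over all pairs of groups, so the numbers were not taken to pair them. Depth limits MET28 and STR3 most, whose lowest estimated counts were 23 and 56.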

Other observations

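Ratios of further pairs within a library, also chosen by hand, gave more values. MET6 to MET17, the last step to methionine against the step that takes up sulfide, was 0.504 and 0.506 at 30 °C and 0.181 and 0.171 at 39 °C. With 5ph-IAA it was 0.388 and 0.368 at 30 °C and 0.238 and 0.249 at 39 °C, so the 4 groups did not overlap. MUP1 to SAM3, 2 permease genes, was 1.32 and 1.42 at 30 °C and between 2.13 and 2.43 in the 6 other libraries. MET16 to MET3, the PAPS reductase against ATP sulfurylase, was 1.46 and 1.41 at 30 °C, and 0.949 and 0.967 after heat. With 5ph-IAA it was 0.973 and 1.26, and 0.646 and 0.509 after heat.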
